A study of Mus musculus with 6 samples.

Results

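The 9 genes described here are surface and lineage genes of B cells: Cd79a, Cd79b, Cd22, Cd72, Ms4a1, Cr2, Fcer2a, Blk and Pax5. They were chosen by gene name from a table of 38483 mouse genes, and all 9 were among the 15121 genes that passed the filter on low counts. Under these names stood 36 of 93480 transcripts. The cells are labelled as T cells, not as B cells: CD4+CD62L+ cells were taken from spleen with a selection kit and held for 3 days in medium that drives the Th17 state, with 10 ng/ml of IL-6, as much IL-23, 1 ng/ml of TGF-β, and blocking antibodies to IFN-γ and to IL-4 (10 µg/ml of each). Both groups were on the B10.RIII background: 3 libraries were IL-17A+/+ wild-type and 3 were IL-17A-/- Knockout, and both received the same culture. Age, sex, pooling of animals and the construction of the knockout allele are not stated in the labels. The labels number the libraries of each genotype as replicates without saying that they came from separate animals or cultures, so p-values measure only the spread between these samples.

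B cells read antigen through a receptor made of a membrane immunoglobulin and the signalling chains Igα and Igβ, encoded by Cd79a and Cd79b. Kinases such as Blk relay the signal, the coreceptors CD22 and CD72 damp it, and complement receptor 2 lowers the threshold for it. PAX5 is the transcription factor that commits progenitors to the B lineage and switches on several of these genes. Mature T helper cells are not known for making these transcripts as a set, and so their RNA in a T cell culture is read here as a measured level without a cell of origin. In bulk RNA, fewer cells of a type and less RNA per cell cannot be told apart.

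Promoter sequences are shown for Cd79a, Cd22 and Cd72, because the 9 genes shared one pattern over the libraries and these 3 were the members with the highest RNA levels that had a window in the RefSeq table. RefSeq windows (build GRCm38.p6, 250 bases before to 50 after the annotated start, 5′ to 3′ on the gene's strand) were found for 6 of the 9 genes and not for Cd79b, Ms4a1 and Blk. The windows are chr7:24897247-24897546 on the plus strand for Cd79a, chr7:30878979-30879278 on the minus strand for Cd22 and chr4:43454577-43454876 on the minus strand for Cd72. Capitals mark matches, on either strand, to the motifs named after the sequences.
Cd79a: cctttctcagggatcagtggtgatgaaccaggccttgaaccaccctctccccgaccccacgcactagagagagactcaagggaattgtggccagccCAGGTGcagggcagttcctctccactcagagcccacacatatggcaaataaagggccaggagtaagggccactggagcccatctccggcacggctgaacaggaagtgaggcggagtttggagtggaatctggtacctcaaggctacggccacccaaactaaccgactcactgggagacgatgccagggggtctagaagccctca
Cd22: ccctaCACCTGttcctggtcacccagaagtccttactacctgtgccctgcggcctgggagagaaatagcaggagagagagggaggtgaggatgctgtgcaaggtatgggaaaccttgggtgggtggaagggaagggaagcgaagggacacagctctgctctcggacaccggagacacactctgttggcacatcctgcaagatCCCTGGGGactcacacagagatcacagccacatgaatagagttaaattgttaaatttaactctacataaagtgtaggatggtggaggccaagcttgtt
Cd72: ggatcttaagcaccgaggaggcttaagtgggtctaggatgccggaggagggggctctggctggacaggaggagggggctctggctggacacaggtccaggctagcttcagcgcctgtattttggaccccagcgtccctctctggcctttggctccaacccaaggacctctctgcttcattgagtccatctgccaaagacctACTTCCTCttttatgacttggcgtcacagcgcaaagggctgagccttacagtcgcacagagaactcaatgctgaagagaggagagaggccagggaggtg

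The motifs searched were the octamer ATGCAAAT, the ETS-type site GAGGAAGT, the E box CAGGTG and the EBF half-site pair CCCNNGGG, each read on both strands. The 6 genes had 8 windows in all, 3 of them for Fcer2a, and the shares over all genes are counted per window. The E box occurred in 1 window each of 4 genes (Cd79a, Cd22, Cr2 and Fcer2a) and in 20.2% of all 32817 distinct windows. For Fcer2a this was window 2, on whose scale the only transcript, Fcer2a-201, starts at -3313. Window 1, at the start of Fcer2a-201, held no match. The first base of the E box lay at -154 in Cd79a and at -245 in Cd22, counted from the annotated start at 0. On this scale the only Cd79a transcript in the counts, Cd79a-001, starts at -116. The ETS-type site was present in the Cd72 window alone among the 6 genes, at -49, against 3.2% of all windows, and the EBF pair in the Cd22 window alone, at -48, against 13.7%. The octamer matched in none of the 6 genes and in 1.74% of all windows. These matches are letters in a window and not measured binding. Only these exact letters were sought, so sites that differ from them were missed, and no PAX5 motif was searched. The Cd22 window belongs to the start of transcript Cd22-201, and Cd22-202, which held 80.9% of the Cd22 counts, starts at -1314 on the same scale.

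All 9 genes were higher in the knockout library of replicate numbers 1 and 2, by 1.60-fold to 2.53-fold in number 1 and by 1.69-fold or more in number 2, and 8 of 9 were also higher in number 3, most of them slightly (Cr2 with 17 counts against 16 and Fcer2a with 4 against 3). Across all tested genes 16.6% were higher in the knockout within all 3 numbers. The median log2 ratio of the 9 genes was 0.92 in number 1, 1.33 in number 2 and 0.06 in number 3, whereas that of all tested genes was 0.02, 0.00 and -0.01. None of the 9 genes had CPM ranges (counts scaled to library size with TMM factors) that were separate between the genotypes, against 3.01% of tested genes that were higher in every knockout library than in every wild-type one. Both genotypes spread widely over replicate numbers: knockout 1 was the highest library for all 9 genes, wild-type 1 was the highest wild-type library for all 9, and wild-type 1 stood above knockout 3 for all 9.

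**Figure D1:**
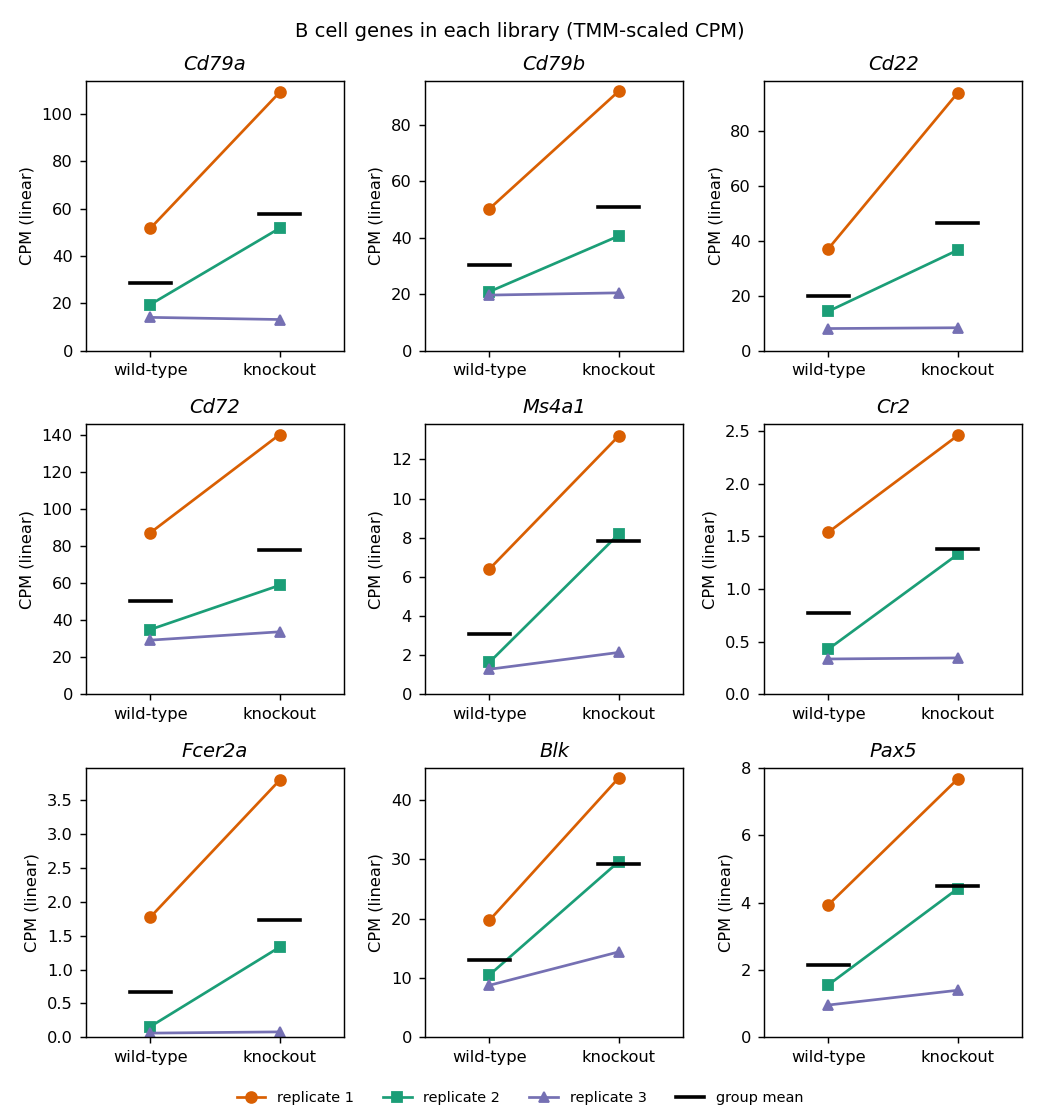
CPM on linear axes for the 9 genes in the 3 wild-type and 3 knockout libraries. Each point is a library, lines join libraries with the same replicate number and black bars are group means. The lines of numbers 1 and 2 climb in every panel, while those of number 3 are nearly flat on these axes except for Blk.

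The main test was edgeR's quasi-likelihood test on all 6 libraries without pairing, at an adjusted p under 0.05. It called 0 of the 9 genes and 0 of 15121 genes (0%), and before adjustment 253 genes, of which Blk was the 1 member, passed the same threshold. DESeq2 without pairing called 13 genes and no member. The replicate numbers were taken to pair the libraries, since same-number libraries deviated from their group means together across genes. With the replicate number as a block, DESeq2 called 4 of the 9 genes higher in the knockout: Blk, Ms4a1, Cd22 and Cd72. The same fit called 1.08% of 14241 genes higher. edgeR with the block called 0 genes, with 1471 genes and 8 of the 9 members passing before adjustment and a smallest adjusted p of 0.217 over all genes. The calls in the paired DESeq2 fit therefore rest on that tool. The edgeR changes of all 9 genes depended on the number 1 libraries. Without knockout 1 the log2 changes were 0.19 for Cd79a, 0.01 for Cd79b, 0.18 for Cd22, -0.13 for Cd72, 0.73 for Ms4a1, 0.12 for Cr2, 0.08 for Fcer2a, 0.75 for Blk and 0.43 for Pax5. Without wild-type 1 they were 1.78, 1.33, 2.04, 1.27, 2.43, 1.84, 3.94, 1.60 and 1.83 in the same order of genes.

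Cd79a and Cd79b, the signalling chains of the B cell receptor, were among the most abundant of the set. Cd79a (ENSMUSG00000003379, GRCm38 chromosome 7, 24897381 to 24902197, plus strand) was at 51.6, 19.5 and 14.1 CPM in wild-type 1, 2 and 3 and at 109, 51.7 and 13.2 CPM in knockout 1, 2 and 3. Knockout 2 matched wild-type 1, and knockout 3 was the lowest of the 6 libraries. The edgeR log2 change was 1.03 (SE 0.78, adjusted p 1.00), and the paired DESeq2 change 0.80 (SE 0.27, adjusted p 0.0893). Cd79b (ENSMUSG00000040592, chromosome 11, 106311341 to 106314762, minus strand) was at 50.2, 20.9 and 19.7 CPM in wild-type and at 91.8, 40.6 and 20.5 CPM in knockout libraries. Here knockout 2 lay below wild-type 1, and the number 3 libraries were within 1 CPM of each other. The log2 change was 0.75 (SE 0.60, adjusted p 1.00) in edgeR and 0.62 (SE 0.21, adjusted p 0.0847) in paired DESeq2. Neither chain passed a test on all 6 libraries. In paired DESeq2 the adjusted p of Cd79a was 0.675, 0.706 and 1.47e-05 without number 1, 2 and 3, and that of Cd79b 0.835, 0.627 and 0.00606, so both passed in 1 of these 3 fits.

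Cd22 and Cd72 encode inhibitory coreceptors, CD22 being a lectin for sialic acid and CD72 a C-type lectin. Cd22 (ENSMUSG00000030577, chromosome 7, 30865402 to 30880342, minus strand) was at 37.2, 14.4 and 8.11 CPM in wild-type and at 94.0, 36.7 and 8.40 CPM in knockout libraries. The knockout library was thus 2.53-fold and 2.56-fold higher in numbers 1 and 2 and 1.04-fold in number 3. In paired DESeq2 the log2 change came to 0.92 (SE 0.27, adjusted p 0.0272), against 1.22 (SE 0.88, adjusted p 1.00) in edgeR. Cd72 (ENSMUSG00000028459, chromosome 4, 43446462 to 43454628, minus strand) was at 87.0, 34.8 and 29.1 CPM in wild-type and at 140, 58.7 and 33.6 CPM in knockout libraries. It had the smallest changes of the 9 genes, 0.54 (SE 0.16, adjusted p 0.0297) in paired DESeq2 and 0.62 (SE 0.61, adjusted p 1.00) in edgeR. The edgeR change of Cd72 was below 0 without knockout 1. The calls of Cd22 and Cd72 were lost in paired DESeq2 without number 1 (adjusted p 0.604 and 0.582) or number 2 (0.424 and 0.406). Both calls stayed without number 3 (1.74e-06 and 0.0403). Cd72 overlaps Tesk1 on the opposite strand, at 17.4 to 24.4 CPM, and the labels do not state whether the counting used strand.

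Ms4a1 (ENSMUSG00000024673, chromosome 19, 11250603 to 11266151, minus strand) encodes CD20, a membrane protein of mature B cells. It was at 6.39, 1.62 and 1.27 CPM in wild-type and at 13.2, 8.18 and 2.13 CPM in knockout libraries. The widest step lay in number 2, at 5.04-fold, and the knockout library was also higher in number 3, at 1.67-fold. Paired DESeq2 gave a log2 change of 1.36 (SE 0.38, adjusted p 0.0205), and edgeR one of 1.34 (SE 0.83, adjusted p 1.00). The paired call was lost without number 1 (log2 change 1.55, SE 0.58, adjusted p 0.277) or number 2 (0.88, SE 0.41, adjusted p 0.457). It stayed without number 3 (1.66, SE 0.46, adjusted p 0.0363).

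Cr2 and Fcer2a, which encode complement receptor 2 (CD21) and the low-affinity IgE receptor CD23, had the lowest levels of the 9 genes. Cr2 (ENSMUSG00000026616, chromosome 1, 195136811 to 195176715, minus strand) held 75, 19 and 16 estimated counts in wild-type and 126, 65 and 17 in knockout libraries, or 1.54, 0.428 and 0.334 against 2.46, 1.33 and 0.344 CPM. A separate identifier that the table also names Cr2 (ENSMUSG00000094924, 195165745 to 195171168, inside the first) held at most 8.70 counts in a library and was not tested. Fcer2a (ENSMUSG00000005540, chromosome 8, 3681737 to 3694174, minus strand) held 86, 7 and 3 counts in wild-type and 194, 65 and 4 in knockout libraries, or 1.77, 0.158 and 0.0627 against 3.79, 1.33 and 0.0810 CPM. A count of 0 would allow up to 3 counts, so both number 3 libraries lay at or just above that floor for Fcer2a, and its number 3 log2 ratio of 0.05 compares 4 counts with 3. The edgeR changes were 0.84 (SE 0.87) for Cr2 and 1.38 (SE 1.48) for Fcer2a, and the paired DESeq2 adjusted p-values were 0.766 and 0.334. The unadjusted p in paired DESeq2 was 0.194 for Cr2 and 0.0272 for Fcer2a.

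Blk (ENSMUSG00000014453, chromosome 14, 63372837 to 63417187, minus strand) encodes a Src-family kinase that acts below the B cell receptor and is also made by some IL-17-producing gamma-delta T cells. It was at 19.7, 10.5 and 8.77 CPM in wild-type and at 43.7, 29.6 and 14.4 CPM in knockout libraries. The knockout was higher by 2.21-fold, 2.83-fold and 1.64-fold in numbers 1, 2 and 3, and knockout 3 alone overlapped the wild-type range. In paired DESeq2 the log2 change came to 1.11 (SE 0.21, adjusted p 2.26e-05), the smallest adjusted p of the 9 genes. Blk was the 1 member still called when number 1 (adjusted p 0.0182), number 2 (0.0197) or number 3 (2.06e-04) was left out. In edgeR the change was 1.17 (SE 0.46, adjusted p 1.00) without the block and 1.12 (SE 0.17, adjusted p 0.259) with it.

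Pax5 (ENSMUSG00000014030, chromosome 4, 44531145 to 44711446, minus strand), the lineage factor, was at 3.94, 1.56 and 0.961 CPM in wild-type and at 7.68, 4.42 and 1.40 CPM in knockout libraries. Knockout 2 lay above wild-type 1, as for Ms4a1 and Blk, and the number 3 libraries were low in both genotypes. Paired DESeq2 gave a log2 change of 1.00 (SE 0.36, adjusted p 0.136), and edgeR one of 1.06 (SE 0.74, adjusted p 1.00).

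**Figure D2:**
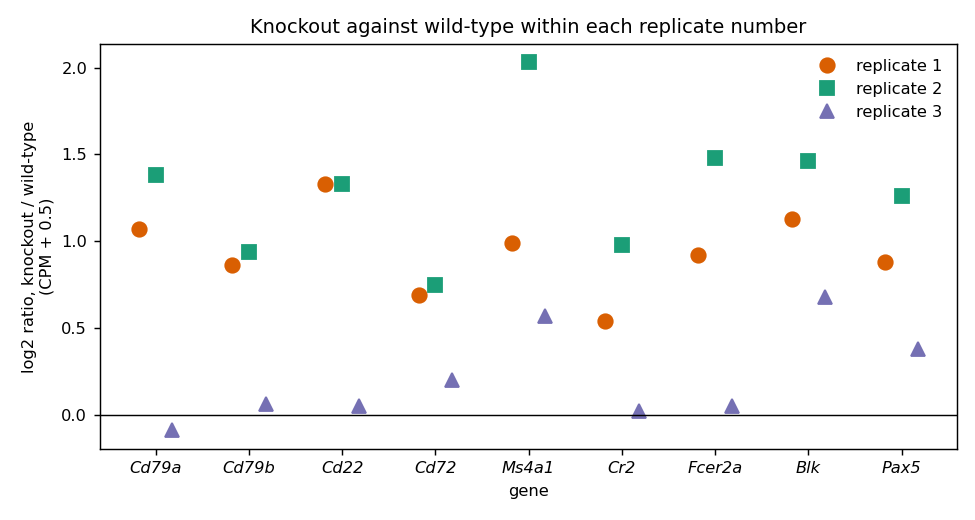
Log2 ratio of knockout to wild-type CPM (0.5 added to each) within each replicate number, for the 9 genes. Circles (number 1) and squares (number 2) lie between 0.54 and 2.03, and triangles (number 3) between -0.09 and 0.68, with Ms4a1, Blk and Pax5 the highest of them at 0.57, 0.68 and 0.38.

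The difference between numbers was itself not tested, since each number holds 1 library of each genotype. Other measures moved with it. Xist, transcribed from the inactive X, ranged from 567 to 664 CPM over the wild-type libraries, whereas knockout 1, 2 and 3 had 2.58, 0 and 627 CPM. The Y-linked Ddx3y was at 44.5, 38.0 and 0 CPM in the same knockout libraries. Numbers 1 and 2, in which all 9 genes were higher in the knockout, are therefore also the numbers whose libraries differed in sex-linked transcripts, and the part of this in the result was not tested. Il17a, the targeted gene, ranged from 108 to 211 CPM over the wild-type libraries and did not exceed 1.11 CPM in any knockout.

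Compared per transcript length, Cd72 was the most abundant member and Cr2 the least. Levels in TPM (transcript levels from counts and annotated lengths, as shares of each library; mean ± SD, n = 6 libraries) were 57.0 ± 45.1 for Cd72, 31.8 ± 23.1 for Cd79b, 27.9 ± 24.8 for Cd79a, 8.01 ± 5.35 for Blk, 7.68 ± 7.83 for Cd22, 2.78 ± 2.49 for Pax5, 2.51 ± 2.23 for Ms4a1, 0.508 ± 0.631 for Fcer2a and 0.163 ± 0.135 for Cr2. Within libraries this order was firmer than the SDs show: Cd72 exceeded Cd79b, Cd79a exceeded Blk, Cd22 exceeded Pax5 and Ms4a1 exceeded Fcer2a in all 6. Blk and Cd22, Pax5 and Ms4a1, and Fcer2a and Cr2 changed places, each keeping the stated order in 4 of 6 libraries, and Cd79b exceeded Cd79a in 5 of 6. Summed over the 9 genes the level was 171, 58.4 and 55.9 TPM in wild-type and 341, 141 and 62.1 TPM in knockout libraries, 2.00-fold, 2.42-fold and 1.11-fold higher within numbers 1, 2 and 3. The sum amounted to 4.58%, 1.92% and 2.13% of the summed TPM of 7 CD4 T cell genes (Cd3d, Cd3e, Cd3g, Cd4, Cd2, Cd28 and Lck) in wild-type and to 9.52%, 4.09% and 2.21% in knockout libraries. Those T cell genes summed to 2623 to 3732 TPM, with both genotypes in that range. The sum hides single genes that moved apart. In number 1 the log2 ratios were -1.09 for Cd4, -0.84 for Cd28 and -0.66 for Cd2. Those of Lck, Cd3d, Cd3g and Cd3e ran from -0.11 to 0.05 there. The Cd4 ratio was 0.13 in number 2 and -0.37 in number 3.

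The 9 genes comprised 35 annotated transcripts under their main identifiers, of which 13 held at least 10% of their gene's counts. Transcript estimates divide reads between overlapping models and are less certain than gene sums. Of 19 member transcripts tested among 36508, edgeR called none, nor any other transcript, with 630 at an unadjusted p under 0.05. Cd79a, Ms4a1, Cr2, Fcer2a and Blk had a single model, and Cd79b was carried by Cd79b-201 at 91.5% to 98.8% of counts in each library. For Cd22, the share of Cd22-201 was 18.7%, 49.1% and 9.7% in wild-type and 12.8%, 27.1% and 21.2% in knockout libraries. Both number 2 libraries had the highest share in their genotype, and the groups overlapped. Cd72 was spread over more models: Cd72-002 held 48.1%, 47.4% and 52.9% of counts in wild-type and 37.6%, 35.6% and 44.6% in knockout libraries, a lower share in every knockout library. Cd72-001 held 11.1%, 8.6% and 11.3% in wild-type and 13.1%, 30.8% and 15.8% in knockout libraries, where knockout 2 stood apart. In CPM, Cd72-001 went from 3.00 to 18.1 in number 2, with an edgeR log2 change over all libraries of 1.39 (adjusted p 1.00), and Cd72-002 from 16.5 to 20.9, with 0.26 (adjusted p 1.00). The shares themselves were not tested. Pax5-011 held 61.6% to 69.5% of the Pax5 counts in 5 libraries and 0.0% in knockout 3. That library held 69 Pax5 counts in all, against 69 in wild-type 2 and 46 in wild-type 3. The edgeR log2 change of Pax5-011 was 0.99 without and -0.10 with the replicate block (adjusted p 1.00 and 0.997).

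**Figure D3:**
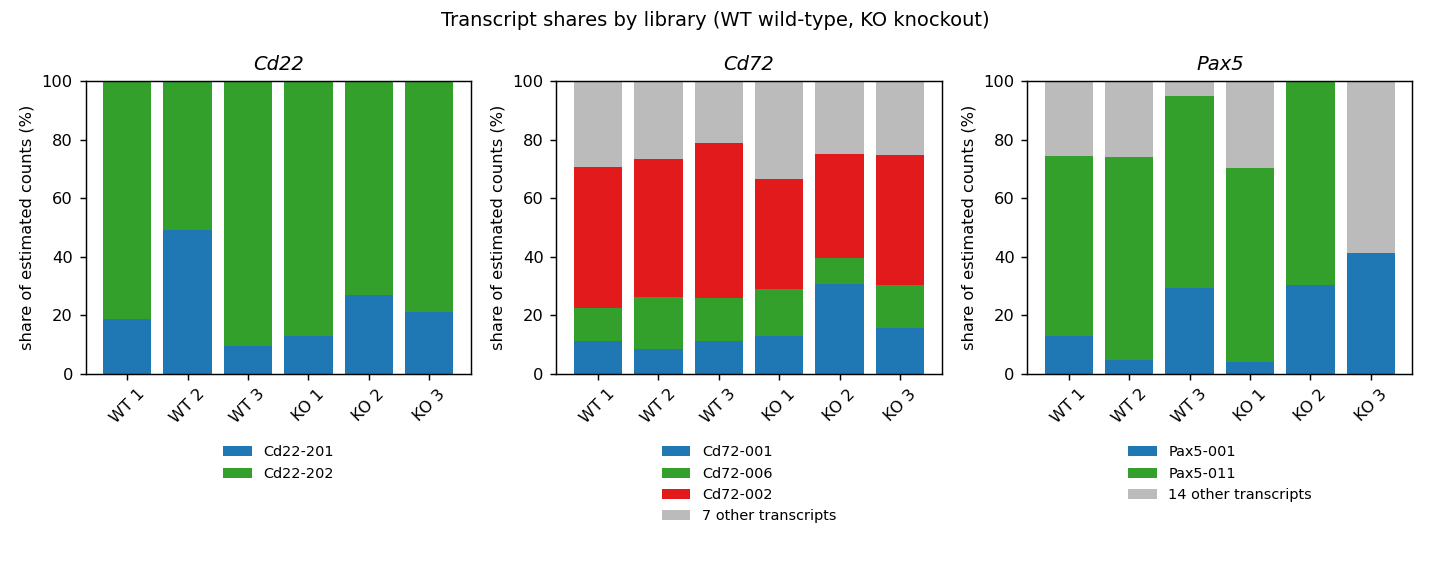
Share of a gene's estimated counts (percent, from 0 to 100) held by each transcript with at least 10% of the gene's counts, and by the remaining transcripts in grey, in the 6 libraries. Cd72-001 takes 30.8% in knockout 2 and at most 15.8% elsewhere, and Pax5-011 takes 0.0% in knockout 3.

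Other genes of the B lineage followed the 9 members in part. Of 15 further B lineage surface genes, all tested, 4 were called higher and none lower in the paired DESeq2 fit, and none was called in edgeR. The 4 were Fcrla (log2 change 1.41, adjusted p 3.14e-06), at 22.5, 5.34 and 3.03 CPM in wild-type and at 52.7, 21.8 and 6.05 CPM in knockout libraries, Ly86 (0.96, adjusted p 6.82e-04), Fcrl1 (0.91, adjusted p 7.12e-04) and Fcgr2b (0.80, adjusted p 3.49e-04). The list's median log2 ratio was 0.78, 0.95 and 0.23 in numbers 1, 2 and 3. Of its 3 most abundant genes none was higher in the knockout within all 3 numbers: the tetraspanin gene Cd37 was at 207 ± 30.7 CPM over wild-type and 174 ± 35.6 CPM over knockout libraries, Tnfrsf13b (TACI) at 109 ± 55.1 and 96.9 ± 49.5 CPM, and Cd24a at 74.6 ± 23.3 and 93.6 ± 21.4 CPM (SD, n = 3), with none past the test.

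Of 12 genes of B cell receptor signalling 4 were called higher in paired DESeq2 and 0 in edgeR. They were the adaptor genes Blnk (1.02, adjusted p 7.00e-04) and Bank1 (1.11, adjusted p 0.0211) and the kinase genes Lyn (0.87, adjusted p 0.0309) and Syk (0.64, adjusted p 0.0390). Which cells made the RNA of these 12 genes, called or not, was not tested. The 3 most abundant were Ptpn6, Inpp5d and Pik3ap1. Inpp5d, which encodes the phosphatase SHIP1, was at 112 ± 4.34 CPM over wild-type and 119 ± 3.75 CPM over knockout libraries, Ptpn6 (SHP-1) at 220 ± 35.7 and 259 ± 93.6 CPM, and the adaptor gene Pik3ap1 at 58.4 ± 33.5 and 51.7 ± 17.7 CPM, and none passed. The list medians were 0.45, 0.43 and 0.02 within the 3 numbers. Among 12 B cell transcription factor genes 1 was called higher, Pou2af1, the octamer coactivator (0.77, adjusted p 0.0472), at 35.9 ± 12.5 and 59.6 ± 10.2 CPM. Ebf1, which acts with PAX5 in early B cells, was at 7.74, 4.53 and 10.1 CPM over wild-type and 15.7, 6.89 and 6.07 CPM over knockout libraries, lower in the knockout of number 3. Irf8, Bach2 and Ikzf3, the most abundant factors, were not called (paired DESeq2 adjusted p 0.919, 0.934 and 0.0604).

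**Figure D4:**
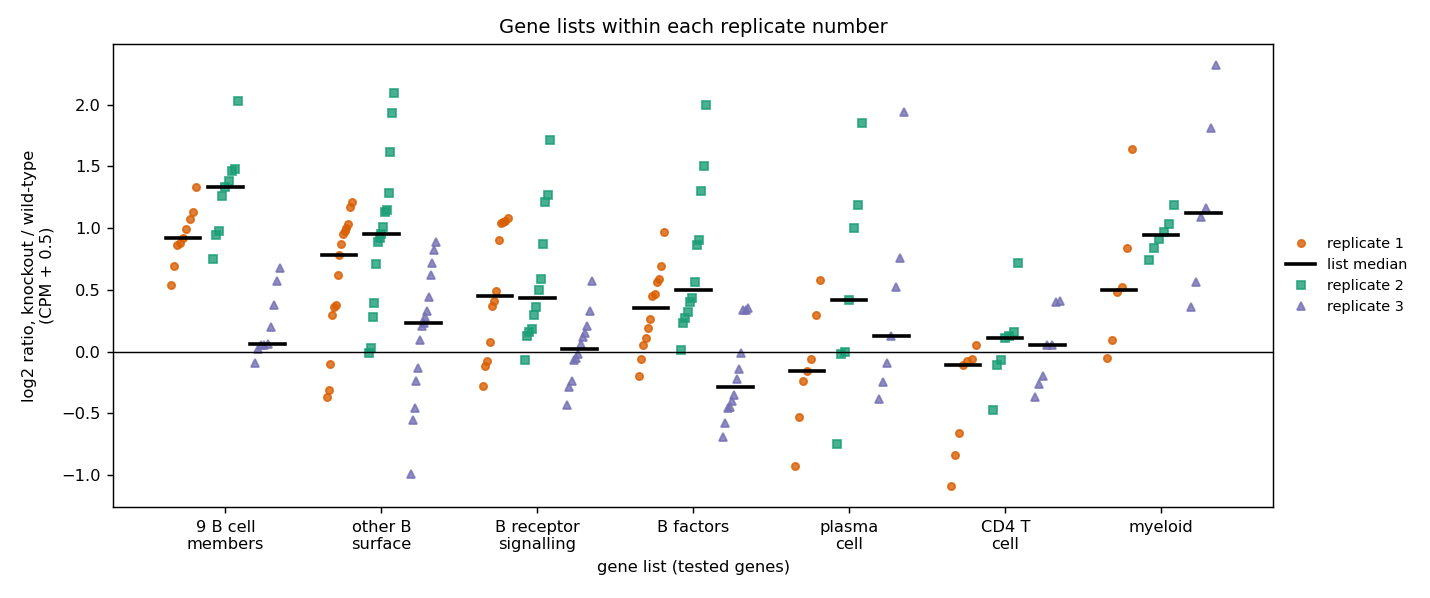
Log2 ratio of knockout to wild-type CPM (0.5 added to each) within each replicate number for the tested genes of 7 lists, with black bars at list medians. The 9 B cell genes have medians of 0.92, 1.33 and 0.06 in numbers 1, 2 and 3, the CD4 T cell genes -0.11, 0.11 and 0.05, and the myeloid genes 0.50, 0.94 and 1.12.

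Markers of other cells moved beside the members, some in patterns of their own and some highest in number 1, as the members were. The 2 CD8 T cell genes, Cd8a and Cd8b1, summed to 423, 92.6 and 71.3 CPM over wild-type and 658, 114 and 112 CPM over knockout libraries, highest in number 1 as the members were, and Cd8a was called higher (0.68, adjusted p 7.02e-04 in paired DESeq2). All 7 myeloid genes were in the table, with Adgre1 at 0.818 CPM or less, and summed to 45.4, 95.1 and 8.25 CPM over wild-type and 83.7, 188 and 26.7 CPM over knockout libraries. Their sum, led by Lyz2, was highest in number 2, and 3 of 6 tested were called higher in paired DESeq2: Mpeg1 (1.22), Clec7a (1.34) and Itgam (0.92). Mpeg1 was highest in number 1, as the members were, at 13.7, 5.46 and 2.09 CPM among wild-type and 43.9, 13.1 and 3.32 CPM among knockout libraries. The 3 NK genes summed to 75.6 to 307 CPM in wild-type and 78.5 to 550 CPM in knockout libraries, almost wholly Nkg7, with Ncr1 at 0.286 CPM or less, and neither of the 2 with an adjusted p was called. Of 6 gamma-delta T cell genes in the table, Blk, itself a member, and Trdv4 (1.70, adjusted p 0.00510) were called higher in paired DESeq2. The others were not called. Mean CPM in wild-type and knockout libraries was 22.4 and 22.3 for Tcrg-C4 and 8.49 and 12.3 for Tcrg-C1. It was 2.50 and 2.90 for Sox13 and 0.929 and 0.868 for Zbtb16. Follicular dendritic cells also carry Cr2 and Fcer2a: their gene Cxcl13 was at 0 in all libraries, Clu reached at most 6.02 CPM, and Mfge8 had 32.7 ± 1.98 CPM in wild-type against 25.5 ± 0.963 CPM in knockout (SD, n = 3; paired DESeq2 adjusted p 0.166). Of 5 dendritic cell genes 3 were tested and none was called, Siglech was at 0, and sums ran from 14.1 to 20.5 CPM in wild-type and 17.7 to 25.8 CPM in knockout libraries. Red cell genes summed to 0.263 CPM or less. Of the CD4 T cell genes 1 fell in paired DESeq2, Cd2 (-0.48, adjusted p 0.00701). The part of these cells in the differences of the 9 genes was not tested.

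The genes whose pattern lay closest to that of the members were sought over all 6 libraries among 12666 other tested genes with a mean of at least 1 CPM. Likeness was the root-mean-square distance between mean-centred log2(CPM + 0.5) profiles, and the members' mean profile was 0.58, -0.74 and -1.07 in wild-type and 1.52, 0.55 and -0.85 in knockout libraries. The 10 closest were Bcar3 at a distance of 0.09, Trbv29 at 0.13, Themis2 at 0.15, Wdfy4 and H2-Ob at 0.16, Bank1, B3gnt5 and Fcrl1 at 0.18, and Gbp7 and Snn at 0.19, whereas the median gene lay at 0.97. Among the members Pax5 was closest to the mean profile, at 0.11, and Cd22 and Blk farthest, at 0.34 and 0.32. Bcar3 was at 4.13, 1.65 and 0.961 CPM over wild-type and 8.70, 4.07 and 1.11 CPM over knockout libraries. H2-Ob, a chain of the class II peptide-loading regulator DO, was at 49.7, 26.0 and 15.6 CPM over wild-type and 119, 51.8 and 17.8 CPM over knockout libraries. The list thus held B cell genes such as Bank1 and Fcrl1 beside a T cell receptor segment, Trbv29. These distances describe 6 libraries that share culture and replicate number.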

How the data were processed

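RNA of cultured T cells was measured in 3 wild-type and 3 knockout stranded mRNA libraries, per the labels' protocols. The authors' deposited table gives an estimated count for each of 93480 transcripts per library, made with Bowtie2 2.1.0 and eXpress 1.3.1 on GRCm38, per the submitters' processing notes. Neither the annotation release nor the strand setting is stated. The deposited table also gives transcript length and GC content as a fraction; GC content was not used.

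Counts were summed per gene identifier and rounded. Libraries held 47335736 to 49743762 estimated counts, so a count of 0 allows up to 3 counts, or 0.0586 to 0.0676 CPM, for counting error only. Chi-square per degree of freedom between libraries was 56.77 or more, so no library was a copy of another. CPM used TMM-scaled library sizes. TPM and CPM were computed here.

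The main test was edgeR 4.0.16 (quasi-likelihood, TMM, filterByExpr, no block, Benjamini-Hochberg over 15121 genes, threshold 0.05), in R 4.3.3; its SE was derived from the F statistic. Alternatives were a replicate block, DESeq2 1.42.0 (independent filtering set for an adjusted p of 0.05 after the default had been run; of 15121 genes 14241 had an adjusted p in the paired fit), other scaling, no filter, transcripts of 300 nt or longer, and libraries left out. Scripts were tested on simulated data. Deviations from group means correlated across genes at 0.602, 0.447 and 0.641 between same-number libraries and at -0.174 to -0.465 between others, so the numbers were taken as pairs. Given the positive values, centring each group on its mean forces negative ones elsewhere, so these are no separate support. The pairing was thus chosen from the same counts that the paired fits tested. What a number stands for is not labelled. The members and gene lists were chosen with earlier results of these data known. Named genes were all 9 members, each list gene past a test, the 3 most abundant of each B lineage list, transcripts with at least 10% of a gene's counts and the 10 genes nearest in pattern; Ebf1 and the single markers of other cells that passed no test were picked after their values were seen, and so were the 4 promoter motifs. The list of further surface genes leaves out 1 gene that is not reported here. Fcmr, Jchain and Adgre1 were matched through older symbols in RefSeq; Fdcsp, Trdc, Ighd and Hbb-bs were not used here. Python 3.11.15, pandas 2.3.3, numpy 2.4.6 and matplotlib 3.10.9 were used.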

Additional observations from a re-analysis of the deposited data

How the results depend on the processing

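The count of called genes was 0 in edgeR and depended on the tool: DESeq2 called 13 without and 381 with the replicate block, and the block called 4 members there. With DESeq2's default filtering target, which was run first and replaced after its result was seen, the paired counts were 374 genes and 4 members, Cd22, Cd72, Ms4a1 and Blk as before. Leaving out single libraries in edgeR, or both libraries of a number in paired DESeq2 (1 residual degree of freedom), gave 0 to 264 called genes and 0 to 6 called members. In edgeR, 1 gene and no member was called without knockout 1. The paired DESeq2 count was 176, 264 and 149 without number 1, 2 and 3, with 1, 1 and 6 members. The Cd72 change ran from -0.13 (without knockout 1) to 1.27 (without wild-type 1), the 1 change of direction among the 9 genes; the cause was not tested. DESeq2 size factors, no low-count filter, transcripts of 300 nt or longer, the edgeR block (genes and transcripts) and, added after seeing the data, summing both Cr2 identifiers called no member and turned the direction of no gene; the edgeR block turned 1 member transcript, Pax5-011, from 0.99 to -0.10. With a pseudocount of 0.1 in place of 0.5 CPM, the Fcer2a log2 ratio in number 2 was 2.47 in place of 1.48. In the same number that of Cr2 was 1.44 in place of 0.98 and that of Ms4a1 2.26 in place of 2.03. The remaining ratios moved by less than these. TPM levels with count-weighted lengths moved by less than their SD over the 6 libraries. Fcer2a was not fitted without number 1. The lowest libraries held 3 counts of Fcer2a and 16 of Cr2, and counting error bears most on these genes.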

Other observations

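The 2 antibody constant genes analysed differed from each other in number 3. Igkc, the kappa light chain constant gene, was at 128, 122 and 89.2 CPM in wild-type and at 256, 247 and 265 CPM in knockout libraries, so that its ranges were separate and the knockout was higher in number 3 by a log2 ratio of 1.56 (paired DESeq2 change 1.19, SE 0.15, adjusted p 1.71e-11; edgeR adjusted p 1.00). Ighm, the heavy chain of membrane and secreted IgM, was at 421, 232 and 184 CPM in wild-type and at 703, 439 and 179 CPM in knockout libraries, the same order of libraries as Cd79a, and was not called (adjusted p 0.128).

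Among 8 plasma cell genes, Tnfrsf17 was at 0 in all libraries, 1 was called higher in paired DESeq2 and 1 fell. The higher one was Jchain, which encodes the chain that joins IgM and IgA polymers, at 5.19, 4.92 and 13.4 CPM in wild-type and 4.61, 19.0 and 52.7 CPM in knockout libraries (1.28, adjusted p 0.0419). It peaked in knockout 3, the knockout library in which all 9 members were lowest among the knockouts. Xbp1, a secretory pathway factor that T cells also express, fell by 0.47 on the log2 scale (adjusted p 0.0271), and Irf4 and Sdc1 did not pass (adjusted p 0.446 and 0.646).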
